A study of Mus musculus with 25 samples.

Results

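The 10 genes of transforming growth factor beta (TGF-beta) signalling described here were followed through mouse basal cell carcinoma (BCC) and a cell line derived from it. They were chosen by name, for their roles in the pathway and with earlier results of these data known: the ligand genes Tgfb1, Tgfb2 and Tgfb3, the receptor genes Tgfbr1 and Tgfbr2, the signal transducer Smad3, the feedback genes Smad7, Skil and Pmepa1, and the matrix target Tgfbi. These are 10 of the 24015 genes in each table of RNA sequencing values, and 10 of 10 passed the filter on low values in both tables. The tumour libraries came from BCCs of C57BL6 mice that carried Ptch+/- together with K14 Cre-ER and p53 fl/fl, in which the keratin 14 promoter, active in basal keratinocytes, drives an inducible Cre. The mice had received a Smo inhibitor by mouth, so the 4 tumours labelled sensitive and the 4 labelled resistant shared the genotype and the drug class, and no untreated tumour was part of the comparison. The sources used here do not give the inhibitor's name and dose, the animals' age or the number of animals. The cell libraries came from ASZ001, a single mouse BCC line labelled as resistant, given vehicle (3 libraries), CCG-1423 (3) or vismodegib (3), at doses and times that the sources do not give. CCG-1423 inhibits transcription driven by serum response factor (SRF) and its coactivator MRTF. Vismodegib inhibits Smoothened, the Hedgehog signal transducer.

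TGF-beta ligands are secreted in a latent form held in the matrix, and once released they bring the type II receptor (Tgfbr2) and the type I receptor (Tgfbr1) together. The type I receptor phosphorylates Smad2 and Smad3, which enter the nucleus with Smad4 and bind short CAGAC elements beside other factors. Smad7, Skil and Pmepa1 are induced by the signal and restrain it, at the receptor, on the DNA-bound Smads and at the step of Smad activation. In skin epithelium the pathway slows the growth of keratinocytes, and in tumours it also acts on stroma, blood vessels and immune cells.

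One tumour stood apart from its label. On the first principal component of the tumour libraries, sensitive tumours 1 to 3 lay at -88.7 to -98.1, whereas sensitive tumour 4 lay at 66.0, beside the resistant tumours at 48.3 to 65.4. Sensitive tumours 1 to 3 had reads from Y-linked genes, and sensitive tumour 4 and the resistant tumours had none, so that without sensitive tumour 4 sex and drug response cannot be told apart. The tumour counts and fold changes are therefore given with and without it. Sensitive tumour 4 was singled out by these same values, so p-values without it describe the remaining tumours and are not an independent test. Reads at genes ranged over 8111252 to 14161398 in the sensitive group, 17537094 to 20014426 in the resistant group and 30455530 to 44017757 in the cells. All values are normalized read counts, which are comparable between libraries of one table and not between genes of different length or between tables. The lowest value of any of the 10 genes, 53.6 for Tgfb3 in a CCG-1423 library, was far above the 2.60 to 3.35 normalized counts that a count of 0 would allow there.

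The labels were checked against marker genes. All 8 basal keratinocyte markers were read in every group, and Krt5 had a mean of 619781 normalized counts in vehicle cells. The cells had no reads of the fibroblast markers Thy1 and Lum, and vimentin (Vim) had a mean of 18.3 in vehicle cells. Of the same list, Pdpn had a mean of 2521 there and Pdgfra 79.1, and the remaining markers had means of at most 2.03. The bulk tumours held stroma and immune cells, so a lower value in them cannot separate fewer cells of a type from less RNA per cell. Gli1, a Hedgehog target, had a mean of 1207 in vehicle cells, 247 in vismodegib cells and 367 in CCG-1423 cells, so it was lower with both compounds. In the tumours its mean was 2380.2 in the resistant group and 925 in the sensitive group, or 575 in sensitive tumours 1 to 3, with sensitive tumour 4 at 1976.

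Upstream sequences from RefSeq (build GRCm38.p6) were matched by symbol for 6 of the 10 genes, and a window of 250 bases before each start was searched on both strands. The windows of Tgfb1, Tgfb2 and Tgfbi are shown because Tgfb1 and Tgfb2 moved in opposite directions under CCG-1423 and Tgfbi had the largest change among the 10 genes. Each runs 5′ to 3′ in the direction of its gene, and capitals mark CAGAC, the core Smad-binding letters, or its reverse complement.
Tgfb1, chr7:25686752-25687001, + strand: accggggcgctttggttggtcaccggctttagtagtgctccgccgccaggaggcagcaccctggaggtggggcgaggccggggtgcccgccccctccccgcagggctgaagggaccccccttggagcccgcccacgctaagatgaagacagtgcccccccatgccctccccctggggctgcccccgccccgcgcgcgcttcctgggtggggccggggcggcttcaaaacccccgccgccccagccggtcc
Tgfb2, chr1:186705990-186706239, - strand: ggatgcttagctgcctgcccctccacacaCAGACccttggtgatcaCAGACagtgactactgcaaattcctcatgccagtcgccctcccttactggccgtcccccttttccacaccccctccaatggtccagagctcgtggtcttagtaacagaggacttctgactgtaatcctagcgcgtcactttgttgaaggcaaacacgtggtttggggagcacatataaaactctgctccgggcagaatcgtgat
Tgfbi, chr13:56609336-56609585, + strand: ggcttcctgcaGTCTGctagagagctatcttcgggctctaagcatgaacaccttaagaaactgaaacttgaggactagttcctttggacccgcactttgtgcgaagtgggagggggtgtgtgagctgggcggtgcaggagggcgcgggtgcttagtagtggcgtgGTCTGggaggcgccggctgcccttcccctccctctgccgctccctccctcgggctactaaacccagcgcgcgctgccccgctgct

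The Tgfb2 window held 2 matches, 221 and 204 bases upstream of the start, and the Tgfbi window held 2, at 239 and 85 bases. The Tgfbr2 window held 1, at 160 bases, and of the Tgfbr1 windows at its 2 listed starts 1 held a match, at 203 bases. None was found for Tgfb1 or Smad3. By comparison, 42.2% of 32851 mouse windows of this length held at least 1 match. The CArG box, the letters bound by SRF, was found in none of the members' windows and in 1.47% of all windows. No matches overlapped. These are matches of letters and not measured binding.

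Resistant tumours were first compared with sensitive tumours, which asks how tumours with different responses to the inhibitor differ. With all 8 tumours, none of the 10 genes passed limma's test at an adjusted p below 0.05, where 0.113% of all 15076 tested genes passed. At an unadjusted limma p below 0.05 there were 3 of the 10 (Tgfb1, Tgfb2 and Smad7), and 3789 of all 15076 tested genes. The edgeR test called 0 of the 10 and DESeq2 called 1, Tgfb2, where DESeq2 passed 10.8% of genes. No gene of the 10 had groups without overlap, as 7.9% of genes did. The median log2 fold change was 0.15 for the 10 genes and 0.03 for all tested genes. Without sensitive tumour 4, Smad7 and Tgfb3 were higher and Tgfb2 was lower in the resistant tumours, which makes 3 of 10 (2 higher, 1 lower), and 38.6% of 14918 genes passed, 20.6% higher and 18% lower. The share of the 10 genes was no larger than that background. The same 3 genes had groups without overlap, as 46.8% of genes did. The median log2 fold change then was 0.20 for the 10 genes and 0.03 for all genes.

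Among the ligands, Tgfb2 had 1369, 882, 995 and 435 normalized counts in sensitive tumours 1 to 4, against 395, 444, 268 and 458 in resistant tumours 1 to 4. Sensitive tumours 1 to 3 lay above every resistant tumour, and sensitive tumour 4 lay among the resistant ones. The log2 fold change of resistant against sensitive was -1.15 ± 0.34 (SE, 4 against 4; limma adjusted p = 0.141) and -1.47 ± 0.23 without sensitive tumour 4 (adjusted p = 0.00205). Tgfb3 ran the other way at 868, 584 and 638 in sensitive tumours 1 to 3 and 1411, 1185, 1761 and 2127 in the resistant tumours, with the highest value of all, 3402, in sensitive tumour 4. Its difference of 0.63 ± 0.52 (limma adjusted p = 0.442) became 1.20 ± 0.23 (adjusted p = 0.00443) without that tumour. Tgfb1, the ligand gene made by many cell types, platelets and leukocytes among them, had 506, 529.8, 598 and 627 in sensitive tumours 1 to 4 and 873, 1031, 962 and 527 in resistant tumours 1 to 4. Its groups overlapped only through resistant tumour 4, and the difference of 0.54 ± 0.22 did not pass (limma adjusted p = 0.181). Without sensitive tumour 4 it was 0.60 ± 0.23 (limma adjusted p = 0.0741, DESeq2 0.0451).

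Both receptor genes had group means that differed by less than their spread. Tgfbr1 had 1272, 1277, 1269 and 1074 normalized counts in sensitive tumours 1 to 4, against 1091, 2003, 1050.3 and 1176 in resistant tumours 1 to 4. Resistant tumour 2 was the high one, and the difference was 0.07 ± 0.22 (limma adjusted p = 0.846), which turned to -0.14 without that tumour and was 0.01 ± 0.23 without sensitive tumour 4. Tgfbr2 had 2238, 2101, 2229 and 1033 normalized counts in sensitive tumours 1 to 4, against 1390.3, 1827, 1426 and 2266 in resistant tumours 1 to 4. Its difference of -0.10 ± 0.28 had a 95% interval of -0.74 to 0.54. Without sensitive tumour 4 it was -0.37 ± 0.19 (limma adjusted p = 0.145).

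Smad7, which binds the type I receptor and blocks it, had 261, 250.1, 144 and 711 normalized counts in sensitive tumours 1 to 4, against 775, 733, 659.5 and 519.8 in resistant tumours 1 to 4. The resistant tumours lay above sensitive tumours 1 to 3 without overlap, with sensitive tumour 4 inside the resistant range. The log2 fold change was 1.21 ± 0.42 (limma adjusted p = 0.153), and 1.65 ± 0.25 without sensitive tumour 4 (adjusted p = 0.00157). Smad3 had 707, 740.4, 469 and 294 in sensitive tumours 1 to 4, against 406 to 538 in the resistant group, and its difference was -0.11 ± 0.29. Skil, a corepressor of Smad3, ranged from 4450.0 to 6057 and from 5174 to 6877 in the 2 groups, with a difference of 0.24 ± 0.17. Pmepa1, which keeps Smads from the receptor, ranged from 6256 to 8416 and from 4305 to 10484, and its difference of 0.01 ± 0.26 changed sign under several scalings. Tgfbi, a secreted matrix protein named for its induction by TGF-beta, ranged from 1512 to 3534 and from 2388 to 4723, a difference of 0.43 ± 0.32. Without sensitive tumour 4 the log2 fold changes were -0.38 ± 0.20 for Smad3, 0.32 ± 0.15 for Skil, 0.09 ± 0.27 for Pmepa1 and 0.63 ± 0.29 for Tgfbi, and these 4 genes did not pass with or without it.

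**Figure D1:**
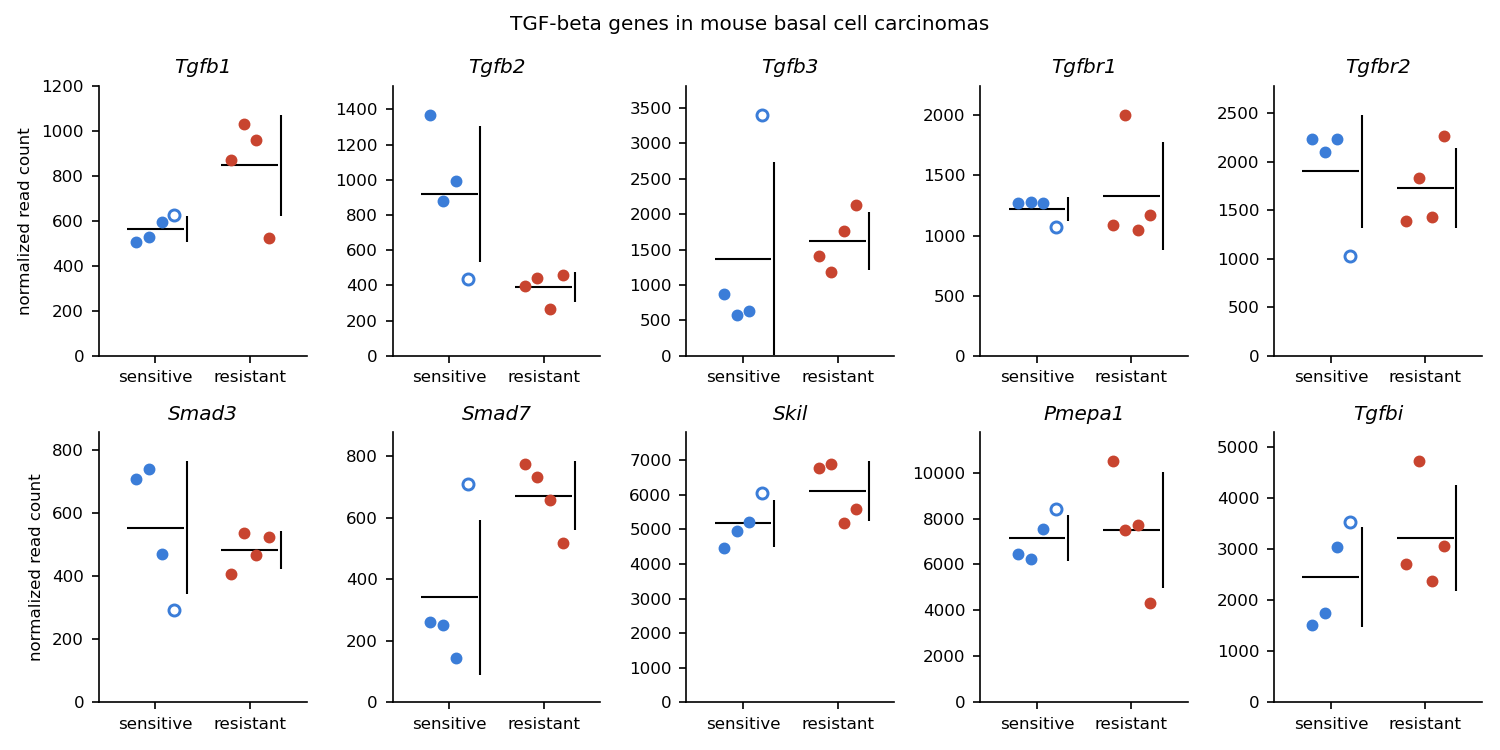
Normalized read counts of the 10 genes (y axes, linear from 0, one panel a gene) in sensitive and resistant tumours (x axes). Points are tumours, the open circle is sensitive tumour 4, horizontal lines are group means and vertical bars are 1 SD. In Tgfb2 and Smad7 the open circle sits with the resistant tumours, at 435 and 711, and in Tgfb3 it sits above them at 3402.

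Sensitive tumour 4 lay within the resistant range for 7 of the 10 genes, within the range of sensitive tumours 1 to 3 for 0, and in neither for 3 (Tgfb3, Tgfbr2 and Smad3). The share of all genes that did so was not counted, and the resistant range spans 4 tumours against 3. The count therefore cannot say whether the 10 genes differ from other genes in this. Over all genes that tumour also lay beside the resistant ones on the first principal component. The tumours whose values differed also differed in cell markers. The sum of 6 neutrophil markers was 646 to 1146 in the first 3 sensitive tumours. Sensitive tumour 4 had 17352 and the resistant tumours had 6753 to 9618, and 6 of 6 were higher without sensitive tumour 4. The sum of 8 basal keratinocyte markers was 210625 to 291200 in the first 3 sensitive tumours. Sensitive tumour 4 had 109493 and the resistant tumours had 69286 to 119362, and 6 of 8 were lower without sensitive tumour 4. Of 7 endothelial markers 4 were higher, and of 10 fibroblast markers 3 were higher and 2 lower, with sums of 22642 to 28254 in the sensitive and 22054 to 34997 in the resistant tumours. None of 9 macrophage markers passed, with 3 of 7 T cell markers tested (1 higher) and 3 of 5 platelet markers tested (none passing). All these marker counts are without sensitive tumour 4, where 38.6% of all genes passed, 20.6% higher and 18% lower. With all 8 tumours no marker of any list passed limma's test. Resistant tumour 4 had the lowest Tgfb1, Smad7 and Pmepa1 of its group and the highest Tgfb2, Tgfb3 and Tgfbr2. Its macrophage sum was 91496, mostly Lyz2 at 67712, against 9507 to 27613 in the other tumours. Of all 8 tumours it also had the highest endothelial (3976), fibroblast (34997), T cell (570) and platelet (408) sums. Its basal keratinocyte sum (69286) was the lowest. The part of these cells in the values of the 10 genes was not tested.

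The cells given CCG-1423 were then compared with vehicle, a question of what an MRTF/SRF inhibitor does to the genes in cultured BCC cells. All 10 genes passed limma's test, 4 higher (Tgfb1, Tgfbr1, Tgfbr2 and Smad3) and 6 lower (Tgfb2, Tgfb3, Smad7, Skil, Pmepa1 and Tgfbi). The compound changed most of the transcriptome: 85.3% of 12775 tested genes passed, 42.8% higher and 42.6% lower, so passing does not set the 10 genes apart.  A change of at least 2-fold was reached by 3 of the 10, all lower (Tgfbi, Tgfb3 and Pmepa1), against 26.9% of all genes in either direction and 15.3% lower. The median log2 fold change was -0.19 for the 10 genes and 0.00 for all genes.

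Tgfbi had 33093.5, 31961 and 32023 normalized counts in the vehicle libraries and 6889, 6777 and 6566 in the CCG-1423 libraries. Every treated library lay far below every vehicle library, with means of 32359 ± 637 and 6744 ± 164 (SD, n = 3 each). The log2 fold change was -2.26 ± 0.03 (SE, 3 against 3; limma adjusted p = 1.7e-17), or 4.80-fold lower, and the gene ranked 423 of 12775 from the most reduced. Pmepa1 had 13535, 13596 and 13698 with vehicle and 3491, 3519 and 3655 with CCG-1423. Its fall was 3.83-fold, at -1.94 ± 0.03 on the log2 scale (limma adjusted p = 1.94e-17). Tgfb3 had 306, 278 and 270.5 with vehicle and 53.6, 67.5 and 72.3 with CCG-1423, a log2 fold change of -2.14 ± 0.11 (limma adjusted p = 4.22e-11). The 3 largest falls thus belonged to a matrix target, a feedback gene and a ligand gene.

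The other ligand genes moved less and apart. Tgfb1 had 3614, 3467 and 3327 with vehicle and 4551, 4479 and 4784 with CCG-1423, and rose by 0.41 ± 0.04 on the log2 scale (limma adjusted p = 3.23e-07). Tgfb2 had 2758, 2892 and 2839.6 with vehicle and 1989, 1977 and 1979 with CCG-1423, a log2 fold change of -0.51 ± 0.03 (limma adjusted p = 7.55e-10). No treated library overlapped a vehicle library for either gene.

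The receptor genes and Smad3 rose. Tgfbr1 had 1957, 2079.6 and 1987 with vehicle and 3479, 3393 and 3538 with CCG-1423, a rise of 1.73-fold (0.79 ± 0.04 on the log2 scale). Tgfbr2 rose from a mean of 1895 ± 34.7 (SD, n = 3) to 2433 ± 54.9, a log2 fold change of 0.36 ± 0.03. Smad3 rose from 2502 ± 38.5 to 3448 ± 229, a log2 fold change of 0.46 ± 0.04. Their limma adjusted p-values were 8.98e-12, 8.83e-08 and 4.33e-08. The feedback genes Smad7 and Skil fell by little: Smad7 from 1177 ± 36.8 to 1028 ± 70.0 (log2 fold change -0.20 ± 0.05, limma adjusted p = 0.00227) and Skil from 2996 ± 85.4 to 2648 ± 107 (log2 fold change -0.18 ± 0.04, adjusted p = 0.000515). The 3 feedback genes thus shared a direction and differed in size, with Pmepa1 reduced far more than the other two. For all 10 genes the groups did not overlap, as was the case for 85.8% of tested genes.

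**Figure D2:**
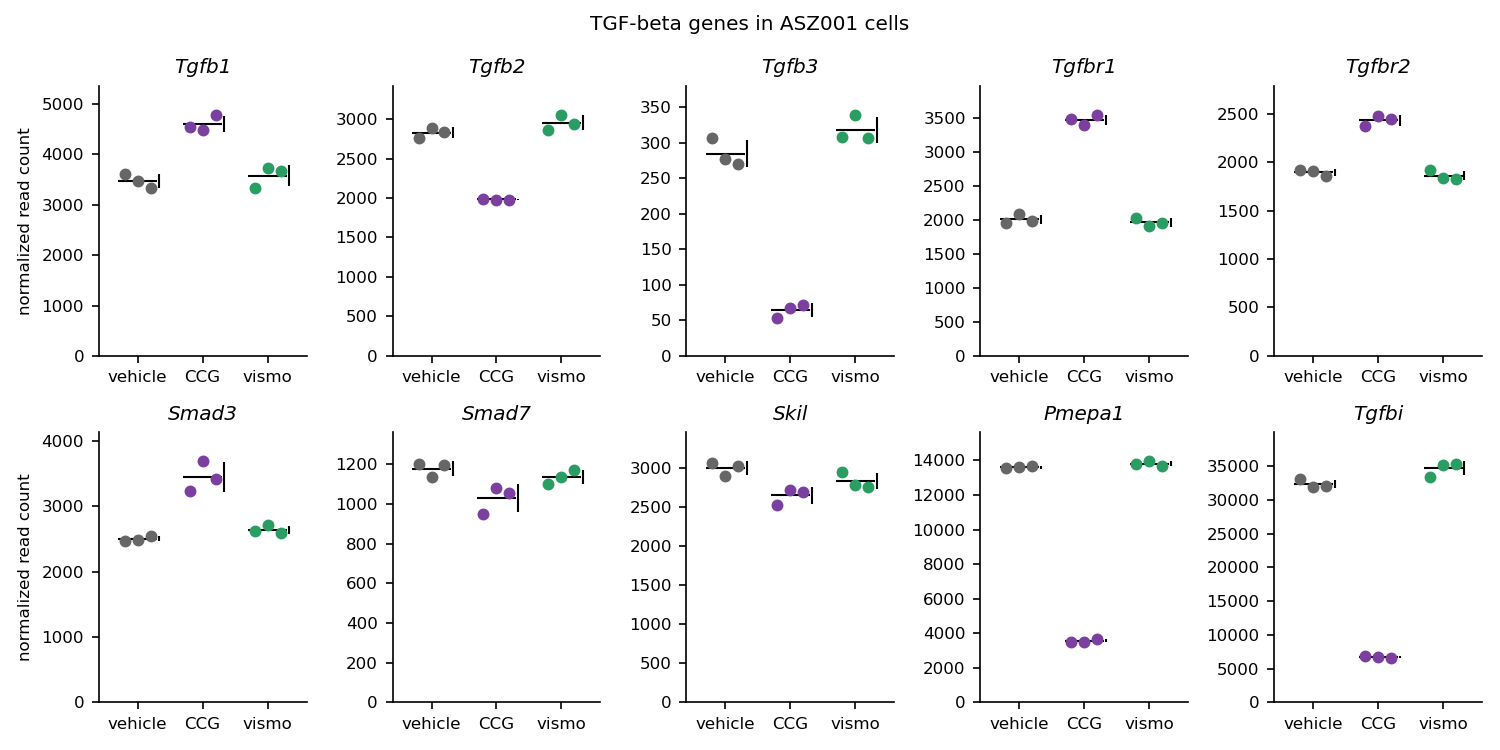
Normalized read counts of the 10 genes (y axes, linear from 0) in ASZ001 cells given vehicle, CCG-1423 (CCG) or vismodegib (vismo). Points are libraries, horizontal lines are group means and vertical bars are 1 SD. The CCG-1423 libraries of Tgfbi sit at 6566 to 6889 and those of Pmepa1 at 3491 to 3655, apart from both other groups, and vismodegib sits beside vehicle in each panel.

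Markers also moved in these cells. Over all 12775 tested genes 85.3% passed with CCG-1423, 42.6% were lower and 15.3% were lower by at least 2-fold. Of the basal keratinocyte markers 8 of 8 were lower, 7 of them at least 2-fold, and Krt14 went from a mean of 444824 to 86019. The fibroblast sum went from 2595 to 2645 with vehicle to 6834 to 7581 with CCG-1423, almost all of it Pdpn (mean 2521 and 7133), which keratinocytes also express, while Vim had means of 18.3 and 18.0 and Thy1 and Lum had no reads. Of the macrophage list, C1qa and C1qb had no reads in either group, while Cd68 rose from a mean of 421 to 856 and Csf1r fell from 19.3 to 3.11. Of the other lists, the only T cell gene tested (Lck) and the only neutrophil gene tested were higher, 1 of 2 macrophage genes was higher and 1 lower, and the 2 endothelial and 2 platelet genes tested were lower, from summed levels of at most 913 and 113 normalized counts in any vehicle library. The part of the keratinocyte markers' change in that of the 10 genes was not tested.

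Vismodegib was compared with vehicle in the same way and with the same vehicle libraries. None of the 10 genes passed limma's test, where 5.5% of 12775 genes passed. Only Tgfbi and Skil had an unadjusted limma p below 0.05 (0.00758 and 0.0471), which does not count as a call. Both edgeR and DESeq2 called 0. The log2 fold changes ran from -0.08 to 0.16, and their 95% intervals lay within -0.17 and 0.40. Tgfbi had 33443, 35148 and 35332 with vismodegib, all above the vehicle libraries, and a log2 fold change of 0.10 ± 0.03 (limma adjusted p = 0.0959). Tgfb3 (308 to 339) and Smad3 (2597 to 2713) also lay above vehicle without overlap, which makes 3 of 10, all higher, where 16% of genes did so. Scaling each library by its total reads instead made 4 genes higher (Tgfb2, Smad3, Pmepa1 and Tgfbi), where 22.9% of all genes became higher, and leaving the ribosomal RNA gene Rn45s out of those totals made it 0. Rn45s held 5.81 to 6.70% of reads with vehicle and 1.39 to 1.58% with vismodegib.

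Set against vismodegib directly, CCG-1423 gave the same 4 higher and 6 lower genes at an adjusted p below 0.05, where 84.8% of genes passed. The log2 differences were -2.36 ± 0.03 for Tgfbi, -2.30 ± 0.11 for Tgfb3, -1.96 ± 0.03 for Pmepa1, -0.58 ± 0.03 for Tgfb2 and 0.82 ± 0.04 for Tgfbr1. Those of Tgfb1, Smad3 and Tgfbr2 were between 0.36 and 0.39. The smallest were Smad7 at -0.15 ± 0.05 (limma adjusted p = 0.0158) and Skil at -0.09 ± 0.04 (adjusted p = 0.0339). Smad7 lost its call without CCG-1423 replicate 1 (adjusted p = 0.0748) and without vismodegib replicate 3 (0.0656). Skil lost it without CCG-1423 replicate 1 (adjusted p = 0.118) and without vismodegib replicate 1 (0.159), with DESeq2 (0.0542) and with only these 2 groups fitted (0.0548). Both lost it with totals that leave out Rn45s (0.0972 for Smad7 and 0.345 for Skil). This comparison and the one with vehicle share the CCG-1423 libraries.

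**Figure D3:**
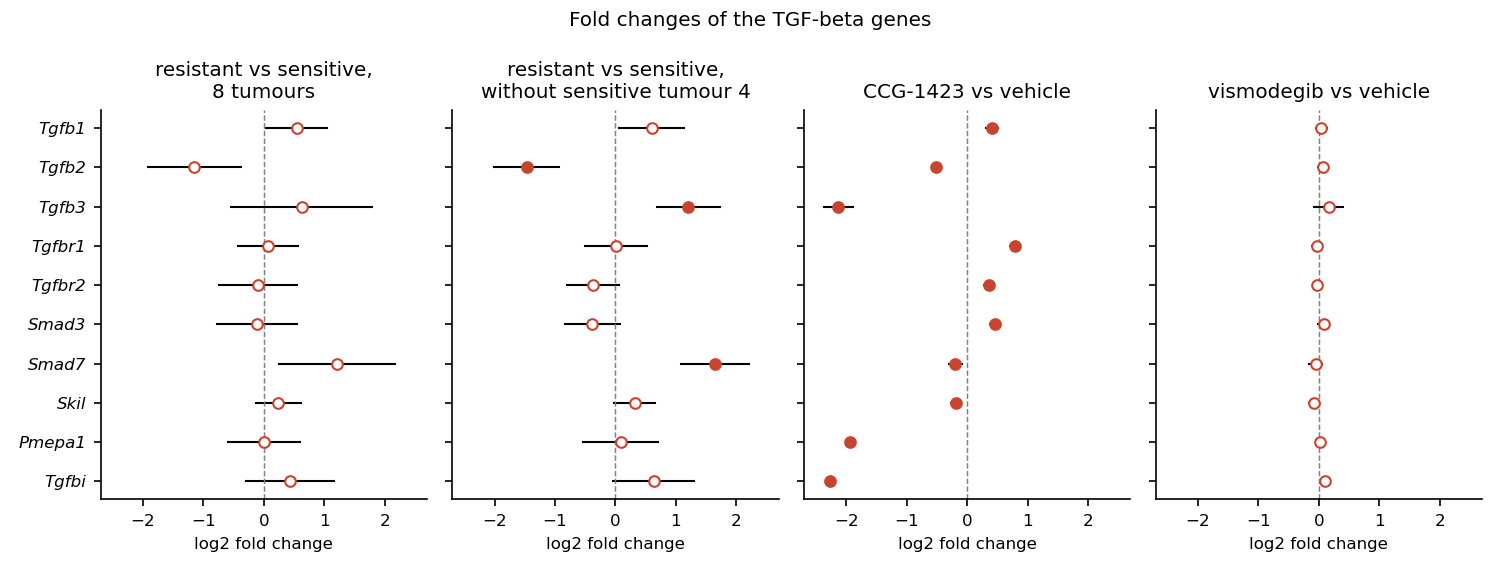
Log2 fold changes of the 10 genes with 95% intervals in the tumour comparison, with and without sensitive tumour 4, and for each compound against vehicle. Filled points passed limma's test at an adjusted p below 0.05. Tgfbi, Tgfb3 and Pmepa1 lie near -2 under CCG-1423, at -2.26, -2.14 and -1.94, and all vismodegib points lie between -0.08 and 0.16.

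The balance of the ligand genes Tgfb2 and Tgfb1 was taken within each library as log2(Tgfb2/Tgfb1), which does not depend on library scaling. Its absolute level depends on the length of both transcripts, and only its differences between libraries are compared. It was 1.43, 0.73, 0.73 and -0.53 in sensitive tumours 1 to 4 and -1.14, -1.21, -1.84 and -0.20 in resistant tumours 1 to 4. Sensitive tumours 1 to 3 were above every resistant tumour and sensitive tumour 4 was not. The difference was -1.69 (exact permutation test, 2-sided p = 0.0571, 0.133 adjusted over 4 comparisons, with 0.0286 the smallest possible), and -2.07 without sensitive tumour 4 (p = 0.0571 by the exact test). In the cells it was -0.39, -0.26 and -0.23 with vehicle, -1.19, -1.18 and -1.27 with CCG-1423 and -0.22, -0.29 and -0.32 with vismodegib. The CCG-1423 mean lay 0.92 below the vehicle mean, with 3 of 3 libraries below every vehicle library (exact permutation p = 0.1, the smallest that 3 against 3 can give, adjusted 0.133). Vismodegib differed from vehicle by 0.02 (exact permutation p = 0.8), less than the spread between libraries.

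**Figure D4:**
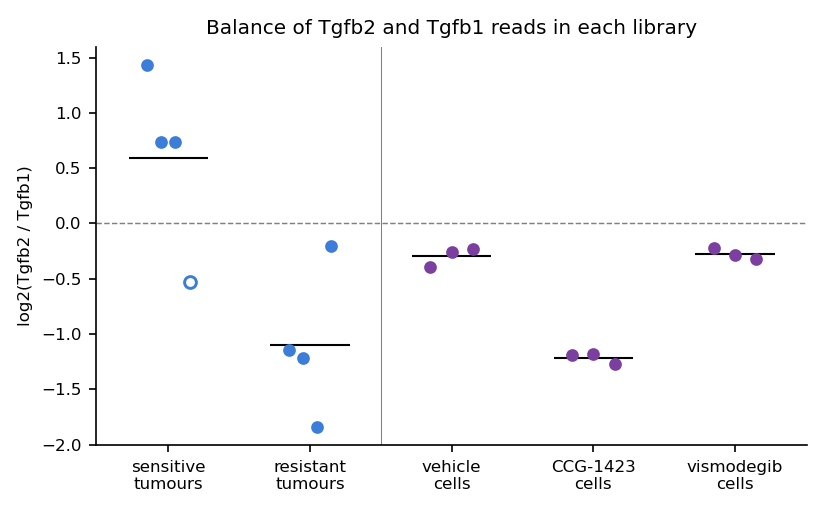
Log2 ratio of Tgfb2 to Tgfb1 reads (y axis) in each tumour and cell library, by group (x axis). Points are libraries, the open circle is sensitive tumour 4, and lines mark group means. Sensitive tumours 1 to 3 lie between 0.73 and 1.43, and the CCG-1423 libraries lie between -1.27 and -1.18.

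The wider pathway was read from 78 further genes in 4 lists: ligand latency and activation (15), other receptors and ligands of the family (12), other Smads and regulators (21) and target genes (30). In the comparison of all 8 tumours none of the 75 tested genes passed limma's test, edgeR called 0 and DESeq2 called 8. Over all genes 0.113% passed limma's test and 10.8% DESeq2's. An unadjusted limma p below 0.05 was reached by 30 of the 75, and by 3789 of all 15076 tested genes. The smallest p in each list belonged to Ltbp2, a latent TGF-beta binding protein relative (1.59 ± 0.46), Inhbb, an activin subunit (-1.10 ± 0.25), Usp15, a deubiquitinase that acts on the receptor and Smads (1.14 ± 0.34), and Hmga2, a chromatin protein (2.94 ± 0.71), as log2 fold changes with limma adjusted p of 0.127 to 0.142. Without sensitive tumour 4, 39 of 75 passed, 27 higher and 12 lower, where 38.6% of all genes passed, 20.6% higher and 18% lower. That was 20 of 30 targets (16 higher, 4 lower), 6 of 15 latency genes (5 higher, 1 lower), 8 of 21 Smads and regulators (5 higher, 3 lower) and 5 of 9 tested receptors and ligands (1 higher, 4 lower).

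Among the targets in that comparison, Hmga2 (3.75 ± 0.29) and Fn1, fibronectin (2.89 ± 0.24), were higher, as log2 fold changes of resistant against sensitive tumours 1 to 3. Fn1 had a mean of 44062 ± 11989 normalized counts in the resistant tumours (SD, n = 4) and 5881 ± 1204 in sensitive tumours 1 to 3 (n = 3). Sensitive tumour 4 had 46474, above the resistant mean, and with it the sensitive mean was 16029.5 ± 20320.2 (n = 4). Among latency genes Fbn1, the fibrillin that anchors latent complexes (1.46 ± 0.13), and Bmp1, a protease that frees them (0.89 ± 0.14), were higher, and Thbs1, thrombospondin, an activator of latent TGF-beta, was lower (-2.46 ± 0.42). The co-receptor Tgfbr3 (-1.69 ± 0.33), Inhbb (-1.19 ± 0.25) and the activin receptor Acvr1b (-0.92 ± 0.21) were lower. Of the regulators Usp15 (1.51 ± 0.18) and the ubiquitin ligase Nedd4l (1.36 ± 0.20) were higher and the corepressor Ski (-1.02 ± 0.15) was lower. With all 8 tumours none of these genes passed, and the log2 fold changes were smaller: 2.94 ± 0.71 for Hmga2, 2.14 ± 0.66 for Fn1, 1.06 ± 0.35 for Fbn1, 0.65 ± 0.24 for Bmp1 and -1.76 ± 0.69 for Thbs1. They were -1.28 ± 0.45 for Tgfbr3, -1.10 ± 0.25 for Inhbb, -0.72 ± 0.26 for Acvr1b, 1.14 ± 0.34 for Usp15, 1.04 ± 0.33 for Nedd4l and -0.78 ± 0.24 for Ski. Without sensitive tumour 4, the median log2 fold change was 1.03 over the targets, 0.46 over latency genes, 0.07 over regulators and -0.92 over receptors and ligands. With all 8 tumours these medians were 0.73, 0.37, 0.01 and -0.71, in the same order. Fibroblasts and vessels make many of these transcripts, and their part in the counts was not tested beyond the marker values above.

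With CCG-1423, 61 of 67 tested pathway genes passed, 27 higher and 34 lower, where 85.3% of all genes passed. Latency genes leaned lower, with 10 of 13 lower and 3 higher and a median log2 fold change of -0.95. Ltbp1, which tethers latent TGF-beta to the matrix, fell from 10519 ± 289.8 to 4119 ± 118 normalized counts (-1.35 ± 0.03), and Mmp14, a membrane protease, fell from 5954 ± 69.7 to 2846 ± 95.7 (-1.07 ± 0.03). Lrrc32, which presents latent TGF-beta at the cell surface, went the other way, from 113 ± 10.3 to 1399.9 ± 84.5 (3.62 ± 0.09). Inhbb, Inhba, the other activin subunit, and Gdf11, an activin-like ligand, fell (-1.23 ± 0.03, -0.73 ± 0.04 and -2.26 ± 0.14). The regulators were split at 11 higher and 9 lower of 21: Fmod, a matrix proteoglycan that binds TGF-beta, fell from 769 ± 39.2 to 17.7 ± 1.19 (-5.37 ± 0.09), the pseudoreceptor Bambi fell (-2.13 ± 0.07) and Nedd4l rose (1.66 ± 0.04). The targets were split at 10 and 10 of 25, and the 3 named by smallest p fell: Id3 (-2.11 ± 0.06), Id2 (-1.84 ± 0.07) and the matrix protein tenascin C, Tnc (-1.11 ± 0.03). Id2 and Id3 also respond to the BMP branch of the family.

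**Figure D5:**
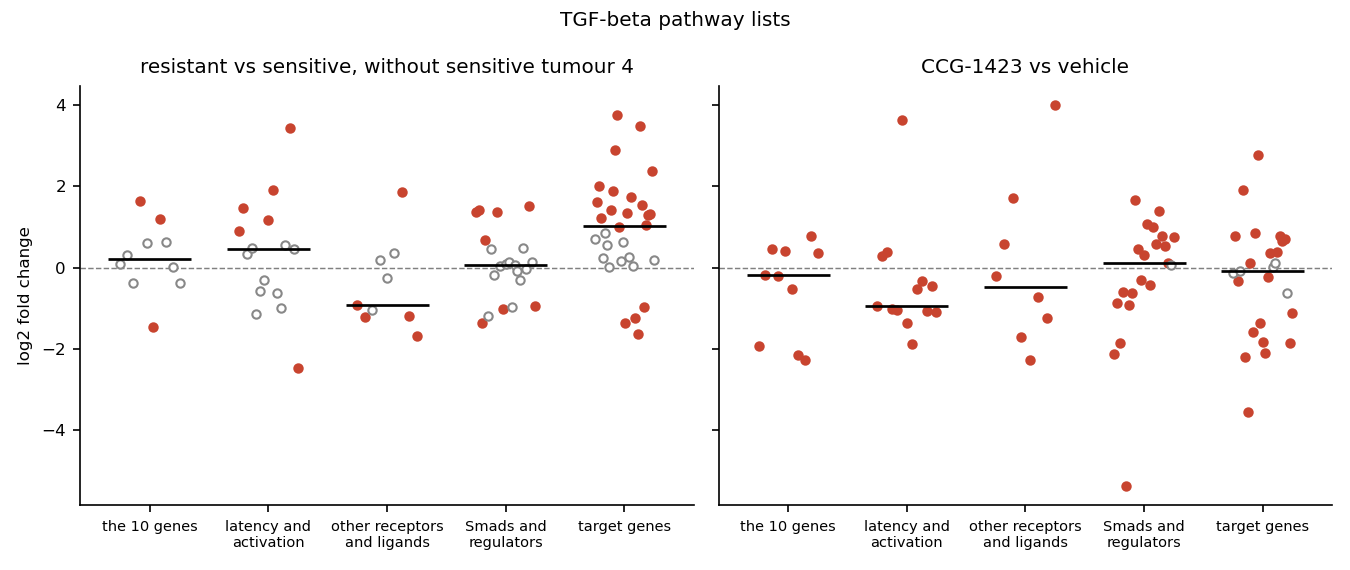
Log2 fold changes (y axes) of the 10 genes and of the 4 pathway lists (x axes), for resistant against sensitive tumours without sensitive tumour 4 (left) and for CCG-1423 against vehicle (right). Filled points passed limma's test, open points did not, and lines are medians. The target genes have a median of 1.03 at left and -0.09 at right, and the latency genes 0.46 and -0.95.

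With vismodegib, 9 of 67 pathway genes passed, 2 higher and 7 lower, where 5.5% of all genes passed. Ltbp1 rose by 0.23 ± 0.03 on the log2 scale, while Inhba (-0.37 ± 0.04), Fst, the activin-binding protein follistatin (-0.31 ± 0.05), and Ctgf, a matricellular target (-0.56 ± 0.10), fell. Lrrc32 (-0.41 ± 0.09), Inhbb (-0.17 ± 0.03), the integrin subunit Itgav (-0.14 ± 0.03) and the transcription factor Snai2 (-0.16 ± 0.04) also passed, but each lost its call when some single libraries were left out. Lrrc32 also lost it with edgeR (adjusted p = 0.0522) and DESeq2 (0.0576). Inhbb (limma adjusted p = 0.0873), Itgav (0.185) and Snai2 (0.211) also lost it with total-read scaling. Between CCG-1423 and vismodegib 59 of 67 passed, 25 higher and 34 lower, where 84.8% of all genes passed.

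For each of the 10 genes the gene with the most similar pattern was sought over the 17 libraries, after centring log2 values within each table, among 12244 genes. The libraries share their treatment groups, so these coefficients describe the pattern and carry no test. Pearson's r was 0.98 for Tgfbi with Aebp1, for Pmepa1 with Commd9 and for Tgfb3 with Gse1, 0.96 for Tgfb2 with Fam179a, and 0.95 for Tgfb1 with Inpp5f and for Tgfbr1 with Tfeb. It was 0.95 for Tgfbr2 with H2-Q2, 0.97 for Smad7 with Trim12a, 0.92 for Smad3 with Rnf122 and 0.91 for Skil with Pdia3. H2-Q2 and Trim12a have near-identical relatives, so their counts are uncertain. Smad7 and Trim12a had an r of 0.98 over the 8 tumours and 0.49 over the 9 cell libraries.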

How the data were processed

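RNA was measured in 8 tumours and 9 cell libraries, and the 8 exome samples were not used here. The deposited signal values are read counts per gene that the authors divided by a size factor for each library, in each table on its own. The step of each library was recovered from its low values, and all values came out whole within 0.01 read. Per the submitters' processing notes, TopHat, DESeq and the build mm9 were used, in roles and versions that these do not state. Gene counter and strandedness: not given in the sources used here. No column of values was left unmapped (0).

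Values were tested as log2(normalized count + 1) by limma 3.58.1 (R 4.3.3) with a variance trend. Genes needed a value of 10 or more in 4 tumour or 3 cell libraries. The test used 2-sided p-values and Benjamini-Hochberg adjustment over all tested genes at 0.05. The script was tested on simulated data. Tumours were fitted with 8 libraries, and cells with 9, which share 1 spread estimate. Fold changes, on the log2(value + 1) scale, carry the SE of the fit, and means the SD. Ligand ratios used exact permutation tests. The labels do not say whether replicates were separate animals or cultures, so a p-value reflects only the spread between these libraries, which may be technical.

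The 10 genes, the pathway lists and the marker lists were chosen with earlier results of these data known. Pathway genes named are, per list and comparison, up to 3 of smallest p among those passing with a mean of at least 50 normalized counts, or the 1 of smallest p. A result that this rule selects is not reported here. Lrrc33 is listed as Nrros, and Adgre1 as Emr1. The alternatives were pseudocounts of 0.5 and 5, no filter, robust variances, total-read, TMM and quantile scaling, edgeR 4.0.16 and DESeq2 1.42.0 on recovered reads, the replicate number as a block, only the compared groups, and each library left out. Chosen after seeing the data were the singling out of sensitive tumour 4, scalings and count tests without it, and totals without Rn45s. RefSeq lists genes overlapping some of the 10, but none is in the tables.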

Additional observations from a re-analysis of the deposited data

Results flagged for a closer look

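The 4 values below lay far from the rest of their group by Dixon's gap test, among 22 groups of 4 libraries tested, where chance flags about 1 in 20. Of the 10 genes, Tgfb3 was high in sensitive tumour 4 at 3402 normalized counts, against 584 to 868 in the other sensitive tumours. Tgfbr2 was low there at 1033, against 2101 to 2238, and Tgfbr1 was low there at 1074, against 1269 to 1277. The test divides the gap by the range of the group. For Tgfbr1 the flag thus also reflects how close sensitive tumours 1 to 3 lay to each other (mean 1273, SD 4.41). Tgfbr1 was high in resistant tumour 2 at 2003, against 1050.3 to 1176 in the other resistant tumours. In 3 of the 4 cases the library was sensitive tumour 4, which also stands apart over all genes.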

How the results depend on the processing

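In the tumour comparison the count of the 10 genes was 0 in all 8 tumours, 1 with DESeq2, and 3 without sensitive tumour 4, where it was 3 with edgeR, with total-read, TMM and quantile scaling, and 4 with DESeq2. Leaving out single tumours gave 0 to 3. Pathway genes went from 0 to 8 with DESeq2, and to 39 without sensitive tumour 4 (38 with edgeR, 41 with DESeq2, 39 with the other scalings), with 0 to 39 over single tumours left out. Over all genes the count of 17 became 0 with a pseudocount of 0.5, robust variances, the other scalings and edgeR, and 1630 with DESeq2. It was 0 to 5763 with single tumours left out, and without sensitive tumour 4 it was 5665 with edgeR, 6400 with DESeq2, 5775 with total-read, 5752 with TMM and 5781 with quantile scaling. Total-read scaling moved the median of all genes in the tumours from 0.03 to -0.08, and without sensitive tumour 4 it gave 2401 higher and 3374 lower genes, against 3073 and 2690. Signs turned only for differences that did not pass. Tgfbr1 in tumours was -0.037 with total-read scaling, -0.132, -0.013 and -0.073 without sensitive tumour 4 under total-read, TMM and quantile scaling, and -0.143 to 0.167 with single tumours left out. Pmepa1 was -0.102, -0.012 and -0.221 under those scalings, -0.055 and -0.211 under total-read and quantile scaling without sensitive tumour 4, and -0.177 to 0.251 with single tumours left out. So left out, Tgfbr2 ranged from -0.370 to 0.001256 and Smad3 from -0.381 to 0.062. The cause was not tested. All 180 values of the 10 genes for CCG-1423 against vehicle kept direction and call over the alternatives run. For vismodegib, total-read scaling called 4 of the 10 genes, 25 pathway genes and 3229 genes (2923 higher), put Tgfbr1 at 0.048, Tgfbr2 at 0.056 and Smad7 at 0.031, and without Rn45s in the totals called 667 genes. With only the vehicle and vismodegib libraries fitted, 1 (Tgfbi), 24 and 1721 were called, against 0, 9 and 703. With single libraries left out, 4 to 9 pathway genes and 325 to 509 genes passed, and the ligand ratio difference was -0.031 to 0.050, -0.011 without vismodegib replicate 1. Same-numbered libraries of different groups correlated at -0.15 to 0.12 in tumours and -0.04 to 0.04 in cells, as deviations from their group means. Differently numbered ones did so at -0.16 to 0.20 and -0.05 to 0.05, so the numbers showed no sign of a pairing. With so few libraries a group, and sensitive tumour 4 apart from its group, this check cannot exclude one. The replicate block gave 0, 10, 0 and 10 of the 10 genes in the 4 comparisons, as without it, and 0 of all genes in tumours in place of 17. Snai2 lost its vismodegib call under the replicate block (adjusted p = 0.0540). Reads at genes ranged over 8111252 to 20014426 in tumours and 30455530 to 44017757 in cells.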
